A study of Homo sapiens with 4 samples.

Results

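A set of 10 genes known as transcriptional targets of the tumour suppressor p53 were followed in Caco-2 cells, an established human line from a colorectal adenocarcinoma, after exposure to the bile acid cholate. They are CDKN1A, MDM2, PLK2, PLK3, GDF15, BTG2, TP53INP1, SESN1, RRM2B and FAS. A gene entered when the platform annotation gave it a probe set, a group of array probes summarised to 1 value, under its symbol alone. That held for 9 of the 10 members, each with 1 probe set, among 18417 genes named in this way. No probe set carried the symbol BTG2 alone, so this antiproliferative gene was not analysed here. Of the 9 members, 8 lay above a floor of 4.84 log2 intensity and FAS lay below it. The floor is the 40th percentile of the mean over the 4 arrays, and 12900 genes lay above it.

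The study measured 4 conditions with 1 array each: cholate on Transwell, vehicle on Transwell, cholate on plates and vehicle on plates. Cholate was sodium cholate at 2 mM for 3 h, given on the apical side of collagen-coated Transwell inserts, which are porous membranes, or in regular 6-well plates. Every array carried RNA pooled from 3 samples. All cells were Caco-2, labelled with 21 days of differentiation, while the growth protocol gives day 14 for plates and days 14 to 21 for inserts, so age and support cannot be told apart if the protocol holds. The values are log2 intensities, and a difference of 2 arrays is a log2 fold change with no replicate check. Because the number of arrays limits the precision, an error can be given only from a limma fit over all 4 arrays. Its error blends each gene's disagreement between the supports with a prior drawn from all probe sets above the floor. With 1 residual and 2.83 prior degrees of freedom the prior weighs more, so an SE is not the gene's own disagreement alone.

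The tumour suppressor p53 is a transcription factor that cells stabilise after DNA damage and other stress. It raises genes that stop the cell cycle, repair or protect the cell, trigger death, or limit p53 itself. The activity of p53 was not measured here. Many of these genes have other inducers too. GDF15 is known to be raised by the stress transcription factors ATF4 and CHOP, and PLK2 and PLK3 were described as early-response kinases induced by serum.

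The labelled cell type was checked first. All 13 measured epithelial and enterocyte markers lay above the floor, among them EPCAM at 12.69 to 12.79 and villin (VIL1) at 11.39 to 11.54 on the 4 arrays. The leukocyte markers PTPRC and CD3E, the fibroblast markers DCN and VIM and the endothelial markers CDH5, VWF and KDR lay under the floor on every array. Other markers of these types did not: 2 of 5 leukocyte, 4 of 6 fibroblast and 1 of 4 endothelial markers had a mean above it. CD14 stood at 8.39 to 8.79, the collagen gene COL1A1 at 7.57 to 8.15 and PECAM1 at 5.58 to 6.27, and their part in the members' values was not tested. The array medians lay between 5.64 and 5.73, and the arrays correlated at r of 0.977 to 0.993 across probe sets above the floor, which is a description across features.

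Promoter sequences of PLK2, its relative PLK3 and GDF15 are shown with MDM2, whose internal promoter is the textbook case of p53 binding. They are RefSeq sequences of build GRCh38.p14, 300 bases long, from 250 bases before to 50 after the annotated start, written on the gene's strand. Of the 10 members, 8 had a promoter in that table. Capitals mark TGACG in PLK2, at bases 174 to 178 of chr5:58460037-58460336 on the minus strand. In PLK3, chr1:44800127-44800426 on the plus strand, they mark TGATGNAA at bases 118 to 125. In GDF15, chr19:18385908-18386207 on the plus strand, they mark a p53 full site at bases 279 to 298, past the start. In MDM2, chr12:68808767-68809066 on the plus strand, they mark p53 full sites at bases 157 to 176 and 195 to 214.
PLK2: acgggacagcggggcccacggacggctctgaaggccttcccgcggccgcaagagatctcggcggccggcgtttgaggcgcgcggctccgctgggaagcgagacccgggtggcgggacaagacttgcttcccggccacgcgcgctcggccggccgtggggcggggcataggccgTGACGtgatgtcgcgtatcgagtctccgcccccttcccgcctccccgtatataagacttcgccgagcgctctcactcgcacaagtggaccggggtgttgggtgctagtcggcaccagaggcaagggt
PLK3: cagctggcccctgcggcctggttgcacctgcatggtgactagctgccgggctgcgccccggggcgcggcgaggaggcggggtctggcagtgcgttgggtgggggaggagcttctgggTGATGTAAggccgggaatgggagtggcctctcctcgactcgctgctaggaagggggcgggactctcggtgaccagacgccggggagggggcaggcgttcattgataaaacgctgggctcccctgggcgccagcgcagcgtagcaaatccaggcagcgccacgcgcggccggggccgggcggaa
GDF15: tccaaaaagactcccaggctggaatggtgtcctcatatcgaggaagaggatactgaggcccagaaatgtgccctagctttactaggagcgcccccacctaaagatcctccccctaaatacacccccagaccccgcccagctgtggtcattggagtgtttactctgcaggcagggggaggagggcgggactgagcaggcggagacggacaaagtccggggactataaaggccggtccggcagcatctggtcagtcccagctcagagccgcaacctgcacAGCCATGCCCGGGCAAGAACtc
MDM2: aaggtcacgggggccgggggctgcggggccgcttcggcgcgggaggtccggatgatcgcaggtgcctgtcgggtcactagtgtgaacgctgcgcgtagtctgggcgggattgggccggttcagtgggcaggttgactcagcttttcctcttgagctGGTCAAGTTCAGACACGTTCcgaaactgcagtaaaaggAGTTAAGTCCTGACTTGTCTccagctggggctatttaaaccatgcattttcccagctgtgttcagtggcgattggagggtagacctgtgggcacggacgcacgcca

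The p53 full site was searched by its published consensus, a pair of half-sites without spacer, allowing 3 mismatches. That consensus reads the same on both strands. The GDF15 match had 3 mismatches, and the MDM2 matches had 2 and 3. Among 34794 distinct promoter windows of this length, 5.21% held such a site. Of the 8 members with a promoter, 4 held it in at least 1 window: FAS, GDF15, MDM2 and SESN1. FAS, MDM2 and SESN1 have several windows each and so more chances of a match. The promoters of PLK2, PLK3, CDKN1A and BTG2 had no match in this window, which says only that these letters were not found there.

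Motifs of stress and early-response factors were searched on both strands as well. TGACG, the core bound by CREB and ATF proteins, stood in PLK2, SESN1 and BTG2 and in 24.5% of all windows. TGACGTCA, the full CRE that contains this core, stood in 0 of 8 members and 1.84% of windows. TGATGNAA, the letters of the site shared by C/EBP and ATF proteins, stood in PLK3 alone of the 8 and in 3.63% of windows. The AP-1 site TGANTCA stood in MDM2 and FAS and in 7.73%, and the CArG box of serum response factor in 0 of 8 and 1.3%. These matches are descriptions of sequence, and binding was not measured.

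The first comparison set cholate against vehicle on each support. The main contrast among the members was one of size: PLK2 and GDF15 were the 2 members at least 1.5-fold higher in cholate on plates, CDKN1A was higher by nearly the same amount on both supports, and the other members stayed within 0.27 log2 units of vehicle. On plates, 2 of the 8 members above the floor passed 1.5-fold upwards and 0 downwards, against 1.49% and 2.35% of the 12900 genes. On Transwell, 0 of 8 were higher and 0 lower by that much, against 0.357% and 0.736% of genes, and 0.178% of genes were that much higher on both supports. With 8 members, 1 gene moves such a share by more than the background itself. Members and gene lists were chosen with earlier results of these data known, so such counts, here and below, describe them and test nothing. The median over these 8 was 0.09 log2 on Transwell and 0.16 on plates, beside -0.01 and -0.03 over all genes above the floor.

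PLK2 is a polo-like kinase that acts in the G1 phase and in centriole duplication. It read 7.70 in cholate and 7.16 in vehicle on Transwell, and 8.96 in cholate and 7.64 in vehicle on plates. The cholate plate array stood apart, the other 3 arrays lay within 0.53 log2 units of each other, and cholate on Transwell was only 0.06 above vehicle on plates. The log2 difference between cholate and vehicle was 0.53 on Transwell and 1.33 on plates, 1.45-fold and 2.51-fold. In these pooled bulk samples, more cells with the transcript and more transcript per cell cannot be told apart.

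Of the 12900 genes, 27 had a higher response than PLK2 on plates, and 66 had one on Transwell. The mean over both supports was 0.93 log2 with a limma SE of 0.22 (n = 4 arrays, adjusted p = 0.399 over the 19978 probe sets above the floor). The response of PLK2 on Transwell minus that on plates was -0.79, with 78 genes further in that direction, and this difference has no test because it uses all 4 arrays.

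PLK3, the related kinase linked to stress checkpoints, did not follow PLK2. It read 6.61 in cholate and 6.59 in vehicle on Transwell, and 6.96 in cholate and 7.02 in vehicle on plates. The log2 differences were 0.02 and -0.06, and the limma mean was -0.02 with an SE of 0.09 (adjusted p = 0.937). The other polo-like kinases on the list were measured too. PLK4, the regulator of centriole number, stood at -0.08 on Transwell and -0.38 on plates, and the mitotic kinase PLK1 at -0.07 and -0.27. PLK2 was therefore the single kinase among the 5 polo-like kinases measured to exceed 1.5-fold on either support. PLK1 and PLK5 were named after their values were seen, and PLK5 stood at 0.03 and 0.16.

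GDF15 encodes a secreted cytokine of the TGF-beta superfamily that signals to the brainstem through its receptor GFRAL. It read 8.98 in cholate and 8.71 in vehicle on Transwell, and 10.14 in cholate and 9.44 in vehicle on plates. As for PLK2 the cholate plate array was highest and the vehicle Transwell array lowest, but here both plate arrays lay above both Transwell arrays. The log2 difference was 0.27 on Transwell and 0.70 on plates, 1.20-fold and 1.63-fold. The limma mean was 0.48 with an SE of 0.14 (adjusted p = 0.441). The log2 response on Transwell was 38.4% of that on plates for GDF15 and 40.3% for PLK2. The receptor gene GFRAL lay under the floor on all arrays, at 2.84 to 2.98, named after its values were seen.

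CDKN1A encodes p21, the inhibitor of cyclin-dependent kinases through which p53 arrests the cell cycle. It read 7.55 in cholate and 7.20 in vehicle on Transwell, and 7.58 in cholate and 7.22 in vehicle on plates. The pairs were almost copies of each other: both cholate arrays lay above both vehicle arrays, and the support made a difference of at most 0.03. The response was 0.35 on Transwell and 0.36 on plates, 1.27-fold and 1.28-fold, and the limma mean was 0.35 with an SE of 0.09 (adjusted p = 0.400). CDKN1A ranked behind 273 of the 12900 genes on Transwell and behind 569 on plates. CDKN1C, another inhibitor of the same family, stood at -0.35 on Transwell and -0.23 on plates, the opposite sign.

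MDM2, the ubiquitin ligase that degrades p53 and closes its feedback loop, read 9.75 in cholate and 9.60 in vehicle on Transwell. On plates it read 10.23 in cholate and 10.08 in vehicle. The cholate responses were 0.16 and 0.15 log2, a limma mean of 0.15 with an SE of 0.09 (adjusted p = 0.574). Both were small and of almost equal size, and 1638 genes on Transwell and 2584 on plates had higher ones.

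The other 3 members above the floor were TP53INP1, SESN1 and RRM2B. TP53INP1, a nuclear stress protein that also takes part in autophagy, read 8.31 in cholate and 8.46 in vehicle on Transwell, and 8.68 and 8.80 on plates. SESN1, a sestrin that restrains mTORC1, read 8.20 in cholate and 8.28 in vehicle on Transwell, and 8.22 and 8.04 on plates. RRM2B, the p53-inducible subunit of ribonucleotide reductase, read 7.26 in cholate and 7.32 in vehicle on Transwell, and 7.37 and 7.64 on plates. None of these responses came near 1.5-fold: they ran from -0.15 to -0.05 on Transwell and from -0.27 to 0.18 on plates. The adjusted p in the limma fit was 0.606 for TP53INP1, 0.876 for SESN1 and 0.601 for RRM2B.

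FAS, a death receptor of the cell surface, read 3.53 in cholate and 3.42 in vehicle on Transwell, and 3.43 and 3.49 on plates. All 4 values lay under the floor, where intensities carry little beyond background, so no direction is given for it. Its adaptor FADD was well above the floor.

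**Figure D1:**
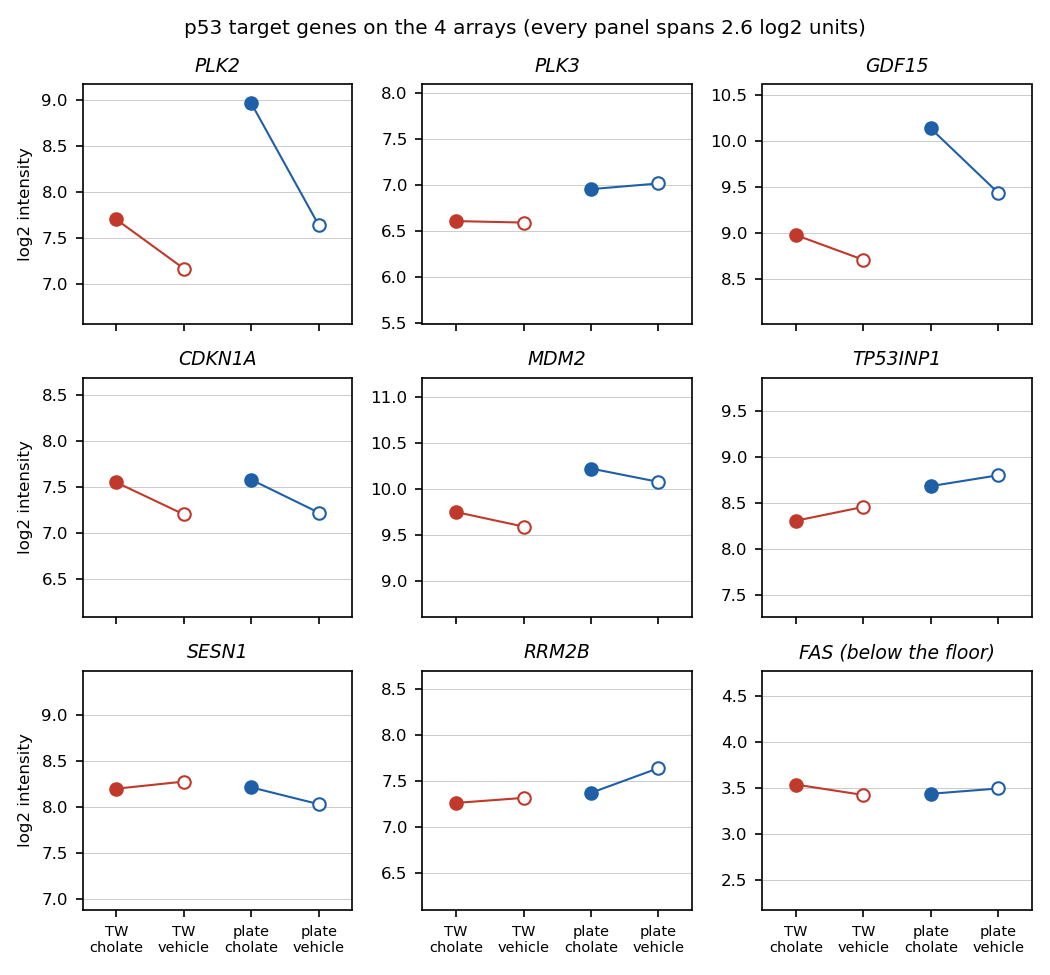
Log2 intensity (vertical axis) of the 9 measured members on the 4 arrays, 1 point per array, with Transwell (TW) in red, plates in blue, cholate filled and vehicle open, and lines joining the arrays of 1 support. PLK2 and GDF15 are highest on the cholate plate array at 8.96 and 10.14, CDKN1A repeats the same step on both supports, and FAS stays under the floor at 3.42 to 3.53.

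**Figure D2:**
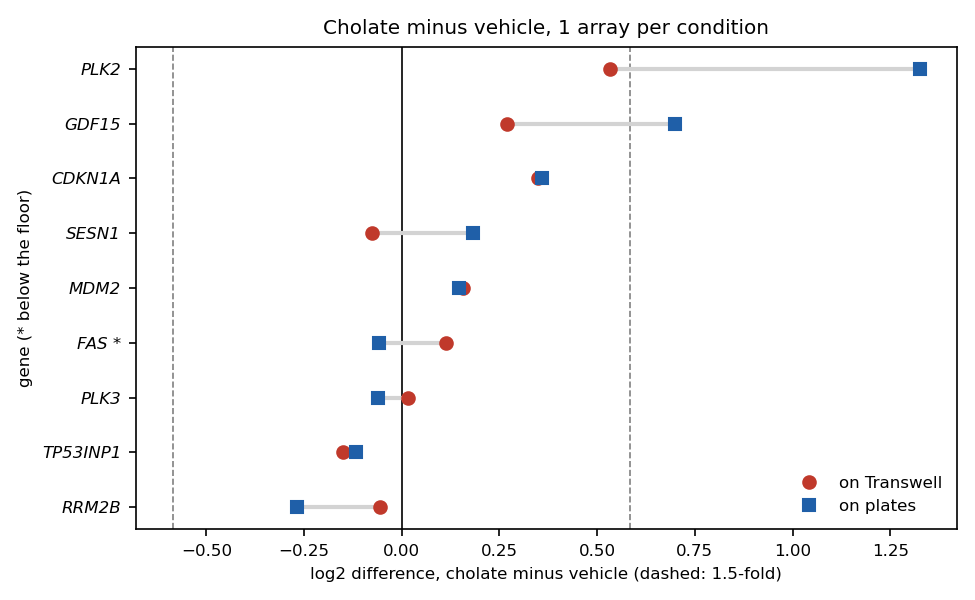
Log2 difference between cholate and vehicle (horizontal axis) for each member, circles for Transwell and squares for plates, with dashed lines at 1.5-fold. PLK2 (1.33) and GDF15 (0.70) pass the line on plates and no member does on Transwell.

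Across the 8 members above the floor, 4 were higher in cholate on both supports (PLK2, GDF15, CDKN1A and MDM2), 2 were lower on both (TP53INP1 and RRM2B) and 2 went opposite ways (PLK3 and SESN1). PLK3 lay so close to 0 that median centring and quantile normalization put it lower on both supports, which makes 3 lower on both and 1 opposite. Among the 12900 genes, 26.1% were higher and 34.7% lower on both supports. No probe set passed the limma test for cholate, with 2162 of 19978 at an unadjusted p under 0.05 (10.8%). PLK2, GDF15 and CDKN1A were the members among these 2162.

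The second comparison set Transwell against plates within each treatment. Of the 8 members above the floor 7 were lower on Transwell in both treatments and SESN1 was not, where 33.2% of the 12900 genes were lower in both. One of the 7, CDKN1A, was at -0.03 in cholate and -0.02 in vehicle, and at 0.01 in cholate under median centring, which leaves 6. The median over the 8 was -0.36 log2 in cholate and -0.38 in vehicle, beside 0.02 in each over all genes. At the 1.5-fold line, 2 of 8 were lower in cholate (PLK2 and GDF15) and 1 in vehicle (GDF15), against 3.75% and 3.16% of genes, and 0 were higher, against 4.02% and 1.93%. GDF15 was the 1 member past that line in both treatments, where 1.84% of genes were.

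GDF15 had the largest mean difference between the supports among the members. It was lower on Transwell by a log2 difference of -1.16 in cholate and -0.73 in vehicle, 2.23-fold and 1.66-fold. The limma mean was -0.94 with an SE of 0.14 (adjusted p = 0.112), and 58 genes in cholate and 246 in vehicle had lower values. With the floor raised to the 60th percentile and the limma fit run anew on 13319 probe sets, the adjusted p was 0.034. In that fit 807 probe sets passed. Over the limma settings tried, the adjusted p of GDF15 ran from 0.034 to 0.202, the latter with no floor.

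PLK2 stood at -1.26 in cholate and -0.47 in vehicle, 2.40-fold and 1.39-fold lower on Transwell. The limma mean was -0.87 with an SE of 0.22 (adjusted p = 0.160). The value in cholate and the response on plates share the cholate plate array, so a high array would enter both, and they are not separate evidence.

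MDM2, PLK3 and TP53INP1 were lower on Transwell by similar amounts in both treatments. MDM2 stood at -0.47 in cholate and -0.49 in vehicle, a limma mean of -0.48 with an SE of 0.09 (adjusted p = 0.123). Over the limma settings tried, its adjusted p ran from 0.045 with the floor at the 60th percentile to 0.216 with no floor. PLK3 stood at -0.35 and -0.43, and TP53INP1 at -0.38 and -0.34, with adjusted p of 0.146 and 0.152 in the limma fit. For these 3 genes the level followed the support and hardly the treatment.

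RRM2B was at -0.11 in cholate and -0.32 in vehicle, and SESN1 at -0.01 and 0.25. CDKN1A, at -0.03 and -0.02, was the member above the floor with the smallest mean difference between the supports (limma adjusted p = 0.892). In CDKN1A the cholate responses were larger than the differences between the supports, the reverse order of MDM2, PLK3 and TP53INP1. No probe set passed the limma test for support either, with 4519 of 19978 at an unadjusted p under 0.05 (22.6%). GDF15, MDM2, PLK3, TP53INP1 and PLK2 were the members among these 4519.

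Some enterocyte markers differed between the supports along with the members. LGALS4, a gut lectin, stood at 1.18 log2 in cholate and 1.14 in vehicle above plates. CDX2, an intestinal transcription factor, read 9.48 in cholate and 9.68 in vehicle on Transwell, and 8.92 and 8.68 on plates. The peptidase gene ANPEP stood at 0.53 and 0.79, and the keratin gene KRT20 at 0.83 and 0.39. These were the 4 of 13 markers at least 1.5-fold higher on Transwell in the mean over treatments, chosen after their values were seen. Of the 12900 genes above the floor, 298 were that much higher. The median over the 13 was -0.06 in cholate and 0.01 in vehicle, and 0 of 13 passed limma (smallest adjusted p = 0.086). The endothelial marker PECAM1 stood at 0.70 and 0.30, and the fibroblast marker COL1A1 at -0.54 and -0.33. Their part in the members' values was not tested.

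**Figure D3:**
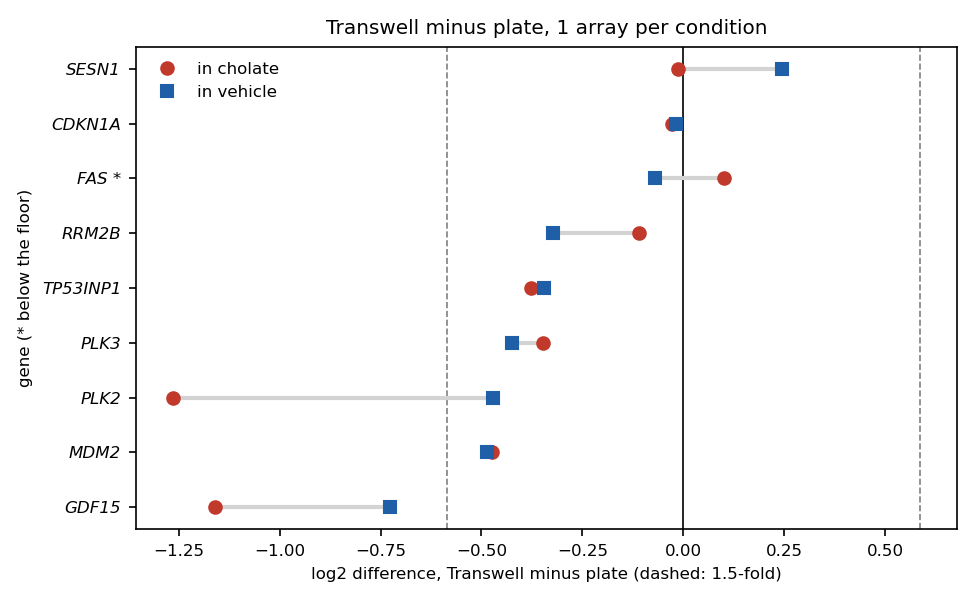
Log2 difference between Transwell and plate (horizontal axis) for each member, circles in cholate and squares in vehicle, with dashed lines at 1.5-fold. GDF15 lies at -1.16 and -0.73 and PLK2 at -1.26 and -0.47, while CDKN1A lies at 0 within 0.03.

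The members thus split into patterns across the 4 arrays, described by the Euclidean distance between their log2 values centred on each gene's mean. The closest pair was PLK3 and TP53INP1 at 0.13. PLK2 and GDF15 lay 0.49 apart, GDF15 and MDM2 0.61, and PLK2 and its relative PLK3 1.15. These distances rest on 4 arrays and carry no test.

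Of all 12900 genes above the floor, the 5 closest to PLK2 by that distance were DDIT4, SNORD82, SNORD51, ATF3 and HSD17B7P2, at 0.20 to 0.27. DDIT4, an inhibitor of mTORC1, read 9.13 in cholate and 8.85 in vehicle on Transwell, and 10.47 in cholate and 9.28 in vehicle on plates. ATF3, a stress-induced transcription factor, read 6.52 and 5.98 on Transwell, and 7.88 and 6.78 on plates. In both genes the cholate plate array was again the highest, which follows from choosing them by this distance. SNORD82 and SNORD51 are small nucleolar RNAs, HSD17B7P2 is a pseudogene, and SNORD82 lay under the floor on every array but the cholate plate one.

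The 5 closest to GDF15 were NFKBIZ, SOX6, MAFF, PPP1R15A and RND1, at 0.13 to 0.21. NFKBIZ, a nuclear regulator of NF-kappaB, read 8.32 in cholate and 7.90 in vehicle on Transwell, and 9.31 in cholate and 8.64 in vehicle on plates. PPP1R15A, the GADD34 subunit that restores translation after stress, read 8.41 and 8.02 on Transwell, and 9.40 and 8.61 on plates. Like GDF15, both had their 2 plate arrays above their 2 Transwell arrays. That too follows from the choice by distance and is no separate observation.

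**Figure D4:**
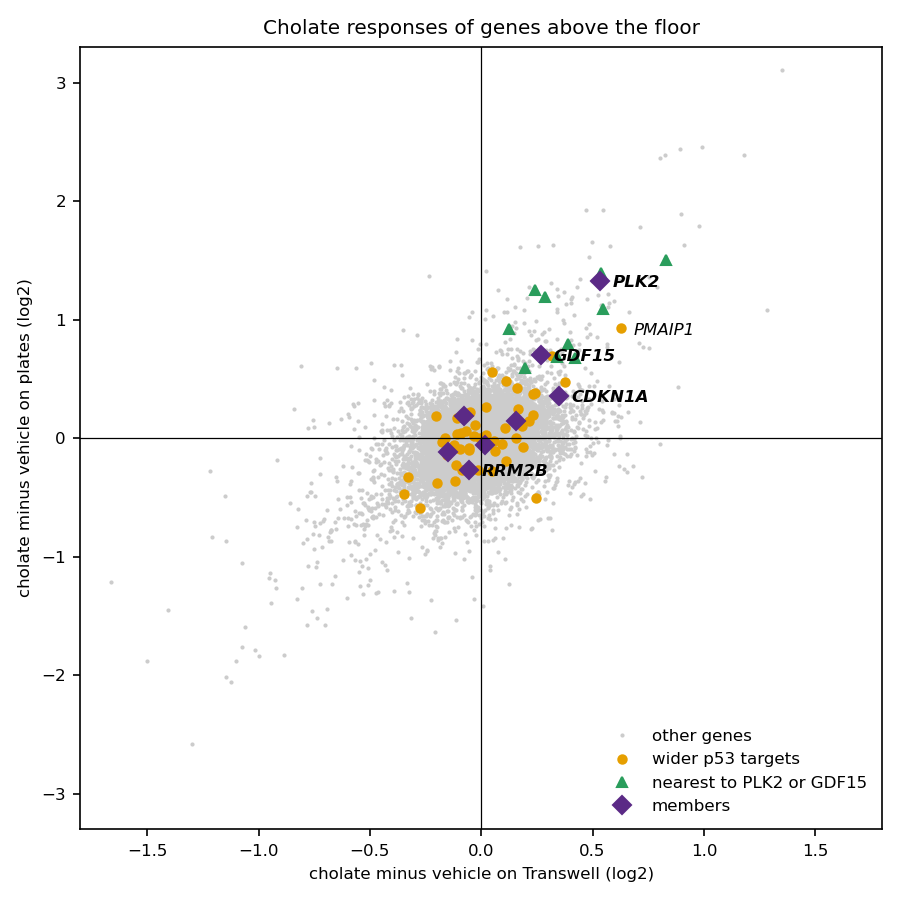
Cholate response on Transwell (horizontal axis, log2) against that on plates (vertical axis, log2) for the 12900 genes above the floor, with the 8 members as diamonds, other p53 targets as orange circles and the genes nearest in pattern to PLK2 or GDF15 as triangles. PLK2 (0.53 and 1.33), GDF15 (0.27 and 0.70) and PMAIP1 (0.63 and 0.93) lie away from the centre, where most p53 targets sit.

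A wider list of 56 further p53 targets was then read, of which 52 were measured and 47 lay above the floor. In cholate, 16 of the 47 were higher and 15 lower on both supports, beside 26.1% and 34.7% of all genes, with a median of -0.01 log2 on Transwell and 0.00 on plates. At the 1.5-fold line 1 was higher on Transwell, and 2 were higher and 1 lower on plates, and 0 of 47 passed limma (smallest adjusted p = 0.321). PMAIP1, the BH3-only death gene, read 5.74 in cholate and 5.11 in vehicle on Transwell, and 7.16 in cholate and 6.23 in vehicle on plates. SERTAD1, a regulator of CDK4, was higher by 0.32 and 0.69 log2, and IER5, an early-response gene, by 0.38 and 0.47. TIGAR, which lowers glycolytic flux, stood at -0.28 and -0.59. The rest of the list stayed within 1.5-fold, as most of the members did.

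The support difference was less even in that list. On Transwell 28 of the 47 were lower and 11 higher than on plates in both treatments, beside 33.2% and 39.5% of all genes, with a median of -0.16 in cholate and -0.10 in vehicle, and 0 passed limma (smallest adjusted p = 0.086). At the 1.5-fold line 4 were lower in vehicle, and 8 lower and 1 higher in cholate. Among the 12900 genes these shares were 3.16%, 3.75% and 4.02%. In vehicle 0 were higher by that much, against 1.93%. PMAIP1 stood at -1.42 in cholate and -1.12 in vehicle. GADD45A, a DNA damage response gene, stood at -0.96 and -1.08. SESN3 and SESN2, relatives of SESN1, stood at -0.61 and -0.91 and at -0.94 and -0.43. SESN1 itself did not share this difference.

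Among the listed regulators and relatives of p53, 19 were measured and all 19 lay above the floor. TP73, a relative of p53, read 6.41 in cholate and 6.21 in vehicle on Transwell, and 6.42 and 6.35 on plates. MDM4, a partner of MDM2, stood at -0.10 on Transwell and 0.20 on plates in cholate, and PPM1D, the phosphatase that shuts off the damage response, at 0.11 and 0.48. CHEK2, a damage kinase, stood at -0.08 and -0.31, HIPK2, a kinase that phosphorylates p53, at 0.02 and 0.34, and PPP1R13L, an inhibitor of p53, at -0.11 and -0.18. The list lay close to 0, with medians of -0.01 on Transwell and -0.02 on plates and 0 members past 1.5-fold. PPM1D is also on the wider list of targets. Between the supports, the named regulators differed by small amounts: USP7, which deubiquitinates MDM2 and p53, stood at 0.27 in both treatments and the damage kinase ATR at 0.16 in cholate and 0.37 in vehicle. SIRT1, a deacetylase of p53, stood at -0.21 and -0.31, and TP53BP2 at -0.25 and -0.24.

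Lists of 2 other stress programmes are given beside PLK2 and GDF15 because these members have inducers other than p53. The integrated stress response genes, 16 of 16 above the floor, had a median cholate response of 0.18 on Transwell and 0.41 on plates, with 2 and 7 of them at least 1.5-fold higher. Over all 12900 genes the medians were -0.01 and -0.03, and 0.357% and 1.49% were that much higher. CHAC1, a glutathione-degrading enzyme, was higher by 0.59 and 1.16, and TRIB3, a pseudokinase, by 0.52 and 0.85. Of the 16, 2 were lower in cholate on Transwell and 5 on plates, where PSAT1 was the lowest at -0.46. The immediate early genes, 15 of 16 measured above the floor, had medians of 0.34 and 0.73, with 4 and 9 at least 1.5-fold higher, beside the same shares of all genes. JUN, an AP-1 subunit, was higher by 0.34 on Transwell and 1.26 on plates, FOSB, another subunit, by 1.18 and 2.39, and the nuclear receptor gene NR4A2 by 0.79 and 1.27. EGR1, a zinc finger factor, went the other way in order, with 1.28 on Transwell and 1.08 on plates. In both lists 0 members passed limma, with smallest adjusted p of 0.321 and 0.312.

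The same lists also lay lower on Transwell than on plates. The median was -0.61 in cholate and -0.50 in vehicle for the integrated stress response, and -0.69 and -0.19 for the immediate early genes. Not all genes went that way: 3 in cholate and 5 in vehicle were higher on Transwell in the first list, and 2 and 5 in the second. DDIT3, which encodes CHOP, stood at -1.34 in cholate and -1.32 in vehicle, and EGR1 at -1.54 and -1.75. JUNB (-1.17 and -1.13), the phosphatase gene DUSP1 (-0.97 and -1.04) and NR4A1 (-1.08 and -0.85) were lower as well. Their part in the values of PLK2 and GDF15 was not tested. SESN2 stands in both the integrated stress response list and the wider p53 list.

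**Figure D5:**
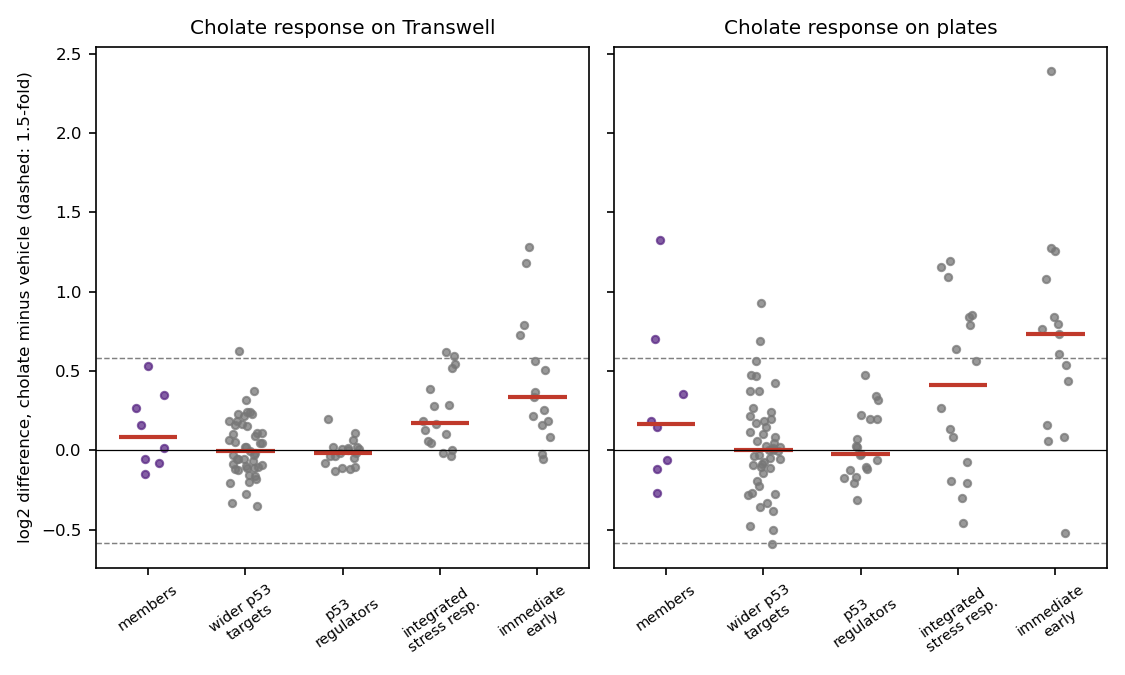
Cholate response (vertical axis, log2) on Transwell (left) and plates (right) for the genes above the floor in each list, 1 point per gene, with red bars at the medians and dashed lines at 1.5-fold. The medians on plates are 0.16 for the members, 0.00 for wider p53 targets, -0.02 for p53 regulators, 0.41 for the integrated stress response and 0.73 for immediate early genes.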

How the data were processed

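Expression was measured on 1 array for each of 4 conditions. The authors deposited log2 intensities from RMA, as the submitters' processing notes name it. This method equalises the distributions of the arrays, which hides any shift common to most transcripts and compresses differences near background. The RMA version is not stated in the labels or the file. The platform annotation gave 1 symbol to 19460 of 33297 probe sets, several to 1754 and none to 12083; the 9 members' gene numbers all matched RefSeq. Per gene the probe set with the highest mean was used.

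Differences between 2 arrays carry no test. limma 3.58.1 in R 4.3.3 fitted support and treatment on the 19978 probe sets above the floor (2-sided, Benjamini-Hochberg, threshold 0.05), with 1 residual and 2.83 prior degrees of freedom, and was tested on simulated data. Figures and tables used Python 3.11.15. All members and, from each of 5 lists, up to 4 genes by mean cholate and 4 by mean support difference with 1 sign in both pairs are named, plus TP73, MDM4 and the 5 genes nearest to PLK2 and to GDF15. Members and lists were chosen with earlier results of these data known. Scaling, floor, fold line and eBayes options were varied.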

Additional observations from a re-analysis of the deposited data

Results flagged for a closer look

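A pair of members above the floor had cholate responses of opposite sign on the 2 supports, with 1 array per condition and no test of the difference. PLK3 had a cholate response of 0.016 log2 on Transwell and -0.062 on plates. On Transwell it was -0.030 under median centring and -0.003 under quantile normalization, so the opposite directions did not hold there. SESN1 had a cholate response of -0.077 on Transwell and 0.183 on plates, and its difference between Transwell and plates was likewise -0.014 in cholate and 0.245 in vehicle. Under median centring the value in cholate was 0.025, the same sign as in vehicle. All these values lie well inside 1.5-fold.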

How the results depend on the processing

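Each condition had 1 array, so there were no replicate numbers to pair and none to leave out. The only pairing was by support: the support term of the limma fit sets cholate against vehicle within each support. Median centring, quantile normalization and cyclic loess moved the 45 member differences by at most 0.07 log2, with 0 changes of sign among those past 1.5-fold. Of 32 differences of members above the floor, 3 changed sign, all of them near 0 (PLK3 in cholate on Transwell, and CDKN1A and SESN1 between the supports in cholate). Averaging probe sets changed nothing, since each member had 1. The fold line and the filters mattered more. Shares of all genes were not counted at the other fold lines or floor, so the counts there have no background beside them. With a 2-fold line, members higher on plates numbered 1 and members lower on Transwell in vehicle 0. With a 1.3-fold line, 1 member was higher on Transwell and 4 were lower on Transwell in vehicle. In the wider list, a 2-fold line left 0 higher and 0 lower on plates, 0 higher in cholate on Transwell, 2 lower on Transwell in vehicle, and 0 higher and 1 lower there in cholate. A 1.3-fold line gave 6 higher and 3 lower on plates, and for Transwell minus plate 2 higher and 12 lower in vehicle and 5 higher in cholate. A floor at the 60th percentile left 1 higher on plates, 0 higher on Transwell and 2 lower on Transwell in vehicle. Counts of 1 in that list changed with scaling: higher in cholate on Transwell was 0 under median centring and quantile normalization, lower on plates was 0 under cyclic loess, and higher on Transwell than plates in cholate was 2 under median centring and 0 under cyclic loess. The limma count for support was 807 of 13319 probe sets with the floor at the 60th percentile. That fit was run anew on these fewer probe sets, so its error estimate changed too. The count was 293 of 19978 with an intensity trend, where the smallest member adjusted p was 0.056 (GDF15). The cholate count was 0 in every setting. Signals under the floor (FAS) give no direction.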

Other observations

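The partners of FAS in death receptor signalling were measured well above the floor. FADD, the adaptor, was higher on Transwell than on plates by 0.70 log2 in cholate and 0.56 in vehicle. CASP8, the initiator caspase it recruits, was higher by 0.68 and 0.48. CASP8 was named after its values were seen. Neither passed limma, and the receptor gene itself stayed under the floor on all 4 arrays.

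RRM1, the large subunit that pairs with the product of RRM2B, stood at -0.14 on Transwell and -0.25 on plates in cholate. BTG1, the relative of the unmeasured BTG2, read 9.95 in cholate and 9.93 in vehicle on Transwell, and 10.66 and 10.40 on plates, so both plate arrays lay above both Transwell arrays.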
